A study of Homo sapiens with 18 samples.

Results

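The 10 genes described here are targets and regulators of the transcription coactivator YAP and its DNA-binding partner TEAD: CCN1, CCN2, ANKRD1, AXL, AMOTL2, LATS2, AJUBA, YAP1, WWTR1 and TEAD1. They were followed in U251 cells, an established human glioblastoma line, through every probe set that the platform annotation assigned to 1 of them only. That gave 24 of the 54613 probe sets on the array, and the main probe set of a gene was the one with the highest mean over all 18 arrays. All 10 passed the filter on low levels and were tested among 12376 of the 19775 genes with a probe set. The 6 groups of 3 arrays are U251 cells after 4, 10 and 18 h of enzastaurin, and U251 cells after 4, 10 and 18 h of DMSO, a common drug solvent. All groups grew in RPMI medium with 5% serum, and the labels give no dose of enzastaurin, which was made as an inhibitor of the beta form of protein kinase C. The series title names the blocking of another kinase, GSK3, and the death of glioma cells as its subject. Nothing in the labels says that replicates came from separate cultures. The p values therefore reflect the spread of these samples alone, and that spread may be technical.

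YAP and its relative TAZ, the product of WWTR1, are coactivators without a DNA-binding domain of their own. In the nucleus they bind TEAD factors and switch on genes for secreted matrix-associated proteins, receptors and cytoskeletal proteins. The Hippo kinases LATS1 and LATS2 phosphorylate YAP and TAZ, which keeps them in the cytoplasm, so much of the control of this pathway acts on the proteins and cannot be read from mRNA. Some targets, among them AMOTL2 and LATS2, encode inhibitors of YAP and give negative feedback. YAP and TAZ activity has been linked to growth and invasion of glioblastoma cells.

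Values are scaled intensities on a linear scale, and changes are differences between group means of log2(intensity + 16), enzastaurin minus DMSO unless stated otherwise. Array medians lay between 99.2 and 125.9, and arrays of a group correlated at 0.977 to 0.986 over the genes tested. No scan date or batch was used here. Of 7 glial and glioma markers, VIM, CD44, NES and FABP7 passed the level filter, and NES was lower at 18 h (-0.67, limma adjusted p = 3.01e-06), while GFAP, the defining astrocyte filament gene, read 5 to 101.2 on the 18 arrays and, with S100B and CHI3L1, did not. Of 13 markers of other cell types with a probe set, 6 passed the filter and 1 changed with enzastaurin. This was the neuronal gene SYT1, higher by 0.39 at 10 h and 0.86 at 18 h (limma adjusted p = 0.0491 and 2.76e-05). The 13 markers summed to intensities of 1875 to 2414 in enzastaurin cells and 1616 to 1991 in DMSO cells at 18 h, none was listed at 0, and their part in the results was not tested.

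Promoter windows of the 10 genes, where there were any, were searched for the TEAD recognition sequence. RefSeq tables for GRCh38.p14 held windows of 250 bases before to 50 bases after a start site for 8 of the 10 genes, all but CCN1 and TEAD1, and 4 of the 8 had 2 windows. The motif CATTCC, searched on both strands, occurred in 7 of these 12 windows, against 14.0% of all 34796 promoter windows searched. CCN2 (chr6:131951323-131951622, minus strand) held it 3 times, with first bases at -169, -104 and -95 from the start site. ANKRD1 (chr10:90921038-90921337, minus strand) held it at -220 and -128, the second window of AMOTL2 (chr3:134374398-134374697, minus strand) at -69, and LATS2 (chr13:21061537-21061836, minus strand) at position 10 after the start. In the sequences below, printed in the direction of transcription, capitals mark CATTCC or its reverse complement GGAATG.
CCN2: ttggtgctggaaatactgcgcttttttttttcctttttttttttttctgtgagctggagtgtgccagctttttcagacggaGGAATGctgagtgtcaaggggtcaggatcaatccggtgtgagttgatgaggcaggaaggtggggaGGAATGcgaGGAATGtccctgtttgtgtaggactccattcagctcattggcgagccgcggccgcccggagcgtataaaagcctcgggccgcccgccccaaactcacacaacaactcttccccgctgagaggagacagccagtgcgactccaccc
ANKRD1: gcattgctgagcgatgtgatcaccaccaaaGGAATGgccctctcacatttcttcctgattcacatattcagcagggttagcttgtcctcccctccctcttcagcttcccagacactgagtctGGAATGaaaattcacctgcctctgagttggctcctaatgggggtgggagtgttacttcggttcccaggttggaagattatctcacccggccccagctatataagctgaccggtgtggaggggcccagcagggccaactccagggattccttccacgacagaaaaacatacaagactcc
AMOTL2: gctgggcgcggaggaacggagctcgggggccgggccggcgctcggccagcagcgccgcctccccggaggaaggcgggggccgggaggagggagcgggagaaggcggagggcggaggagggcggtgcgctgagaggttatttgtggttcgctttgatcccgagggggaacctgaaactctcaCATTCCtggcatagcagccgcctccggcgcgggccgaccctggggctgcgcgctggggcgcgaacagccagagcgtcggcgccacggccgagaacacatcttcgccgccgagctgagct
LATS2: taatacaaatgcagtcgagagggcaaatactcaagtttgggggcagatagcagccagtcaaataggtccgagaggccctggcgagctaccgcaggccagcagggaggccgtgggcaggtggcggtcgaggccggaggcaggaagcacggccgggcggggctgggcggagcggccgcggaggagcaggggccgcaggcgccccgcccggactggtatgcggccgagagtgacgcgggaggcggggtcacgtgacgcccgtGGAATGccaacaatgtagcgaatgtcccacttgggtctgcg
AXL, AJUBA and YAP1 held 1 match each in a window, and neither window of WWTR1 held one. The AP-1 motif TGANTCA was present in 1 of the 12 windows, that of ANKRD1, against 7.73% of all promoter windows, and the CArG box of the serum response factor in none, against 1.30%. A match is a description of the letters in these windows only.

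The mRNAs of the secreted targets CCN1 and CCN2 were lower in enzastaurin cells at every time, and at 18 h 8 of the 10 genes were lower and none was higher. At 4 h CCN1, CCN2 and LATS2 were lower, 3 of 10, against 1.25% of all genes tested. At 10 h CCN1, CCN2, ANKRD1, AMOTL2 and AJUBA were lower, 5 of 10, against 4.69% of all genes. At 18 h all but ANKRD1 and YAP1 were lower, against 7.90% of all genes. No member was called higher at any time, where 0.558%, 3.77% and 8.10% of all genes were at 4, 10 and 18 h. At an unadjusted p under 0.05 none was higher either, and the share of all genes at that threshold was not counted. The median change of the 10 genes was -0.18, -0.28 and -0.61 at 4, 10 and 18 h, beside 0.00, -0.02 and 0.00 over all genes tested. Calls rest on limma with adjusted p under 0.05 over all 12376 genes, and the number of arrays limits the precision.

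**Figure D1:**
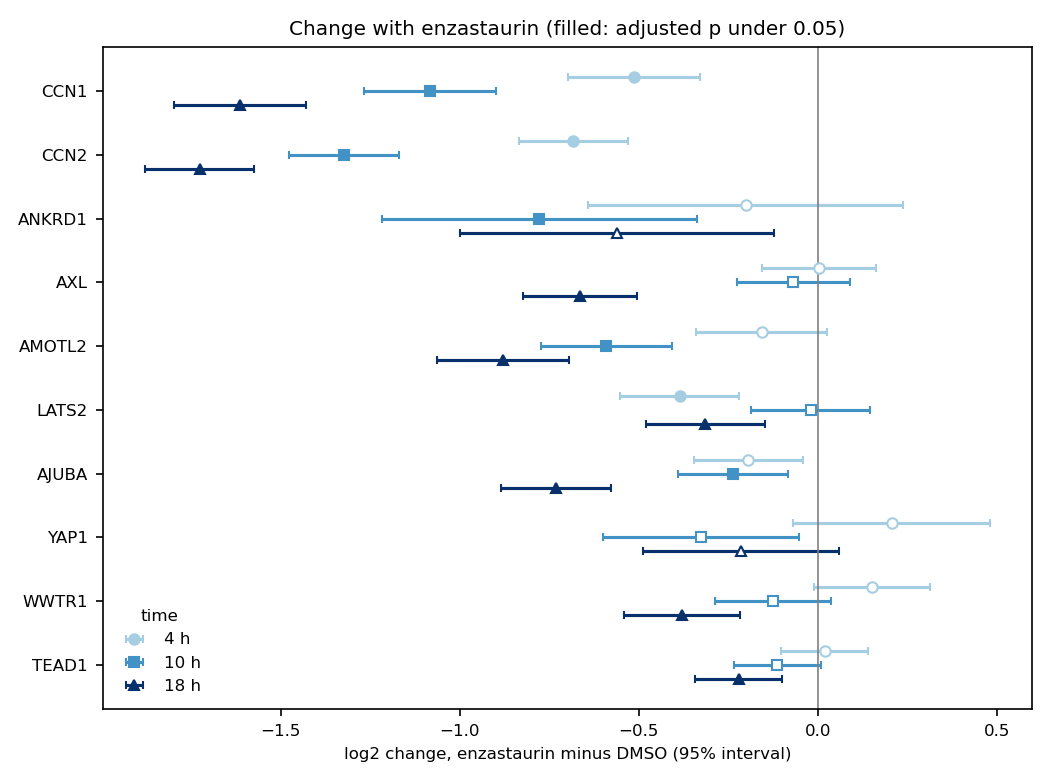
Log2 change of each gene with enzastaurin relative to DMSO (x axis) at 4, 10 and 18 h, from the main probe set, with 95% intervals from limma over 18 arrays; filled symbols passed adjusted p under 0.05. CCN1 and CCN2 lie furthest to the left at each time, and AXL reaches -0.66 only at 18 h after 0.00 and -0.07.

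The 3 enzastaurin arrays lay below all 3 DMSO arrays for 5 of the 10 genes at 4 h, 8 at 10 h and 8 at 18 h, against 9.13%, 15.0% and 14.4% of all genes. An intensity is an average over all cells of a sample, so fewer cells making an mRNA and less of it in each cell cannot be told apart. The results are given below by role, from secreted targets to the coactivators themselves.

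CCN2, a secreted matricellular protein long known as connective tissue growth factor, showed the largest change at each time among the main probe sets of the 10 genes. At 4 h its intensity was 7377, 7481 and 6826 in enzastaurin cells, against 11194, 11389 and 12245 in DMSO cells. At 10 h the arrays read 4085, 4419 and 3976 with enzastaurin and 10599, 10132 and 10545 with DMSO. At 18 h they read 4026, 3332 and 3752 with enzastaurin and 11281, 12682 and 12854 with DMSO. The groups were apart at each time, and the highest enzastaurin array at 18 h stood below every DMSO array of the study. The log2 change was -0.68 at 4 h (SE 0.073, adjusted p = 1.03e-05), -1.32 at 10 h (adjusted p = 2.58e-10) and -1.73 at 18 h (adjusted p = 1.65e-12). In DMSO cells CCN2 did not pass the test between any 2 times, although its change of 0.23 between 10 and 18 h (adjusted p = 0.0677) passed among the brightest 25% of probe sets (0.0454) and with array weights (0.0439). In enzastaurin cells it fell by 0.79 on the log2 scale between 4 and 10 h (adjusted p = 3.84e-07), while the further change of -0.17 to 18 h did not pass (adjusted p = 0.153). In the order of its 6 levels, from the highest, stood DMSO at 18, 4 and 10 h and then enzastaurin at 4, 10 and 18 h.

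CCN1, the sister matricellular gene also called CYR61, was also lower at all 3 times. Its main probe set read 5476, 5721 and 6354 in enzastaurin cells at 4 h, against 7725, 8352 and 8995 in DMSO cells. At 10 h the intensities were 3737, 3710.3 and 3282 with enzastaurin and 7216, 7202 and 8387 with DMSO. At 18 h they were 3766, 3332 and 3335 with enzastaurin and 9479.9, 11586 and 11008 with DMSO. Enzastaurin and DMSO arrays did not overlap at any time. The log2 change was -0.51, -1.08 and -1.61 at 4, 10 and 18 h (SE 0.089 each), with adjusted p of 0.00228, 5.86e-08 and 7.39e-11. CCN1 rose in DMSO cells between 10 and 18 h (0.49, adjusted p = 0.00226), a call lost with array medians subtracted (0.38, adjusted p = 0.115), while its enzastaurin level at 18 h did not pass a test against 10 h (-0.04, adjusted p = 0.832). Subtracting each array's median moved the median 4 h change of all genes to 0.12 and ended the 4 h calls of CCN1 (-0.40, adjusted p = 0.184) and LATS2 (-0.27, adjusted p = 0.252), but not that of CCN2.

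**Figure D2:**
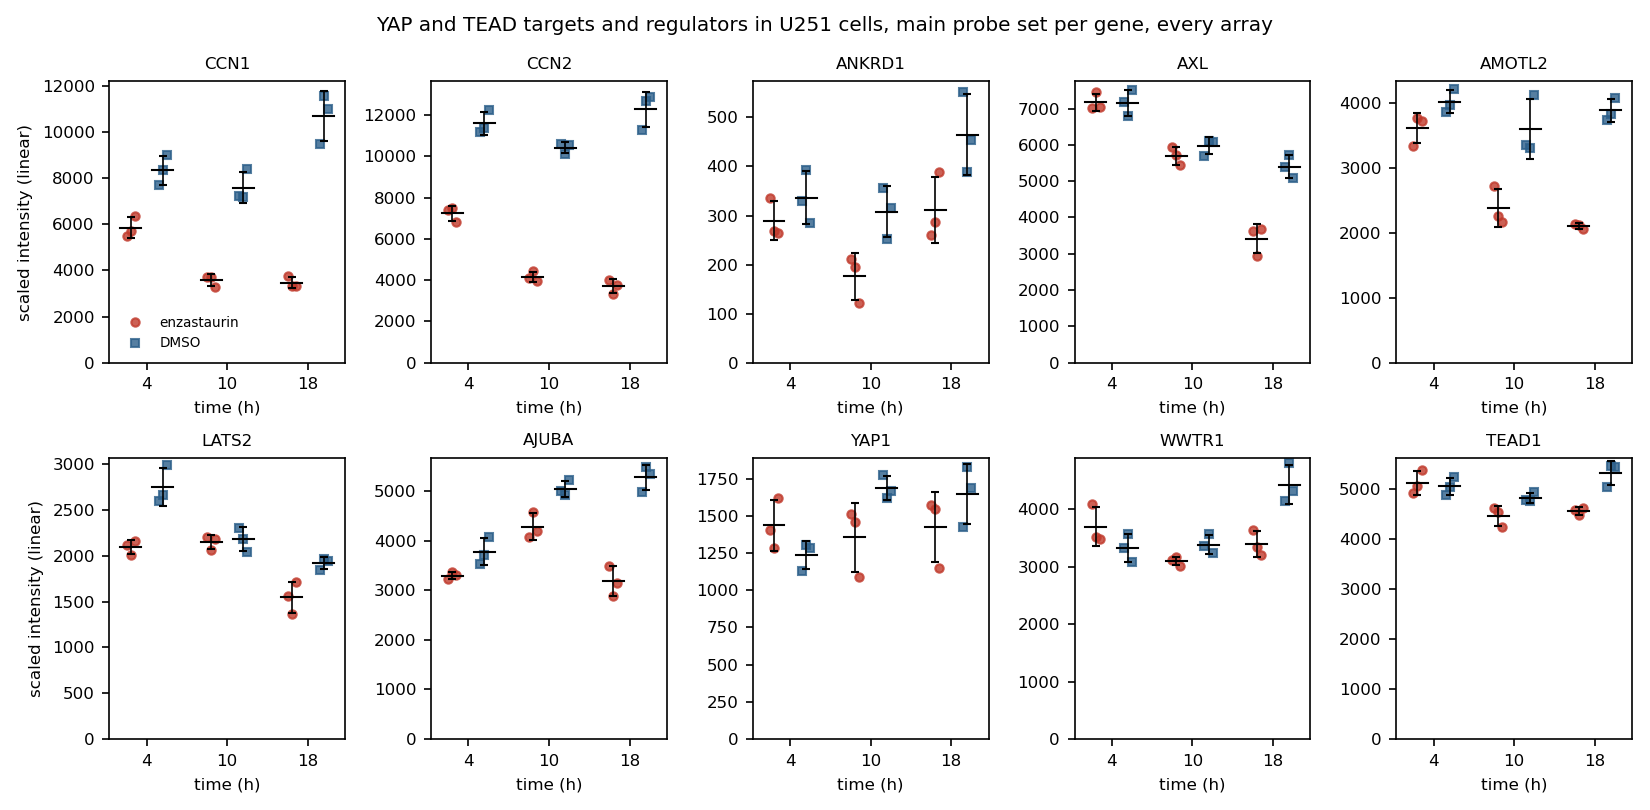
Scaled intensity (linear y axis from 0) of the main probe set of each gene on every array, at 4, 10 and 18 h (x axis), with enzastaurin as circles to the left of DMSO as squares; black lines are means and bars SDs of 3 arrays. CCN1, CCN2, AMOTL2 and AJUBA are apart at each time and AXL at 18 h, while YAP1 overlaps at 4 and 18 h.

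ANKRD1, a nuclear ankyrin repeat protein and a common reporter of YAP activity, passed the test at 10 h only. Enzastaurin arrays read 336, 269 and 264 at 4 h, against 330.3, 394 and 286 with DMSO, and the groups overlapped. At 10 h they read 210.5, 196 and 121 with enzastaurin and 357, 253 and 314 with DMSO. At 18 h they read 259.6, 286 and 388 with enzastaurin and 552, 388 and 454 with DMSO. Only the 10 h groups were apart, and the highest enzastaurin array at 18 h lay just above the lowest DMSO array. The change was -0.78 at 10 h (SE 0.21, adjusted p = 0.0243), but it did not pass after leaving out DMSO replicate 1 or 3 or enzastaurin replicate 3 (adjusted p reaching 0.129). At 18 h the change of -0.56 did not pass (interval -1.0 to -0.12, adjusted p = 0.0776), and it passed without enzastaurin replicate 3 (-0.72, adjusted p = 0.0397). ANKRD1 rose in enzastaurin cells between 10 and 18 h (0.79, adjusted p = 0.0187), a call lost without replicate 3 of either time (adjusted p up to 0.110).

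AXL, a receptor tyrosine kinase that is a direct YAP target, changed late. At 4 h it read 7022, 7449.8 and 7047 with enzastaurin and 7166, 6795 and 7512 with DMSO. At 10 h the values were 5939.7, 5709.8 and 5433 with enzastaurin and 5702, 6116 and 6090.3 with DMSO. The groups overlapped at both times. At 18 h the arrays read 3623, 2946 and 3669 in enzastaurin cells, against 5390.1, 5719 and 5088 in DMSO cells, with no overlap. The 18 h change was -0.66 (SE 0.076, adjusted p = 2.58e-06), while the 10 h change of -0.07 had an interval of -0.23 to 0.09. AXL also fell in DMSO cells by 0.41 on the log2 scale between 4 and 18 h (adjusted p = 0.000642), beside a fall of 1.07 in enzastaurin cells (adjusted p = 1.21e-09).

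AMOTL2, a target whose angiomotin-family protein holds YAP in the cytoplasm, fell at 10 and 18 h. Its arrays read 3344, 3763 and 3722 with enzastaurin at 4 h, against 3869, 3976 and 4224 with DMSO, a change of -0.16 that did not pass (adjusted p = 0.486). At 10 h they read 2719, 2265 and 2169 with enzastaurin and 3358, 3314 and 4125 with DMSO. At 18 h they read 2136, 2123 and 2056 with enzastaurin and 3743, 3837 and 4079 with DMSO. The groups were apart at all 3 times. The change was -0.59 at 10 h (SE 0.088, adjusted p = 0.000166) and -0.88 at 18 h (adjusted p = 4.42e-07). In DMSO cells AMOTL2 did not pass between 4 and 18 h (-0.05, interval -0.23 to 0.13).

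LATS2, which encodes a kinase that inactivates YAP and is itself a YAP target, was lower at 4 and 18 h but did not pass at 10 h. At 4 h it read 2118, 2012 and 2160.4 in enzastaurin cells, against 2596, 2665 and 2987 in DMSO cells. At 10 h the arrays read 2203, 2061 and 2181 with enzastaurin and 2309, 2185 and 2047 with DMSO. At 18 h they read 1561, 1367 and 1709.7 with enzastaurin and 1843, 1965 and 1946 with DMSO. The groups were apart at 4 and 18 h and overlapped at 10 h. The changes were -0.39 (adjusted p = 0.0112), -0.02 (interval -0.19 to 0.15) and -0.31 (adjusted p = 0.00898) at 4, 10 and 18 h, with an SE of 0.080. Leaving out DMSO replicate 3 or enzastaurin replicate 2 ended the 4 h call (adjusted p reaching 0.0862). The 18 h call did not hold without enzastaurin replicate 2 (adjusted p = 0.0593) or with array medians subtracted (adjusted p = 0.0774). LATS2 fell in DMSO cells by 0.51 on the log2 scale between 4 and 18 h (adjusted p = 0.000106), a call lost with its probe sets averaged (-0.32, adjusted p = 0.202). That average includes a probe set under the level filter, with means of 25.6 at 4 h and 54.3 at 18 h in DMSO cells. The 3 LATS2 probe sets at or above the filter all had lower DMSO means at 18 h than at 4 h.

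AJUBA, a LIM-domain protein that binds LATS kinases and restrains them, was lower with enzastaurin at 10 and 18 h. At 4 h it read 3216, 3365 and 3297 with enzastaurin and 3535, 3715 and 4073 with DMSO. At 10 h it read 4069.5, 4581 and 4199 with enzastaurin and 4993, 4918 and 5229 with DMSO. At 18 h it read 3495, 2889 and 3153 with enzastaurin and 4983, 5484 and 5351 with DMSO. Enzastaurin arrays lay below DMSO arrays at each time, and the gap was widest at 18 h. The change was -0.19 at 4 h (adjusted p = 0.243), -0.24 at 10 h (adjusted p = 0.0494) and -0.73 at 18 h (SE 0.073, adjusted p = 4.6e-07). The 10 h call sat at the threshold and was lost without any 1 of 5 of the 6 arrays, all but enzastaurin replicate 2 (adjusted p up to 0.185). Between 4 and 18 h AJUBA rose in DMSO cells (0.48, adjusted p = 8.54e-05), though not with its probe sets averaged (0.06, adjusted p = 0.851), and in enzastaurin cells it did not pass (-0.05, interval -0.21 to 0.10). That average includes a probe set under the level filter, with means of 75.2 at 4 h and 27.6 at 18 h in DMSO cells. The 3 AJUBA probe sets at or above the filter all had higher DMSO means at 18 h than at 4 h.

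Of the coactivator and TEAD genes themselves, WWTR1 and TEAD1 were lower at 18 h and YAP1 passed at no time. YAP1 read 1408, 1282 and 1618 with enzastaurin and 1132, 1302 and 1285 with DMSO at 4 h. At 10 h it read 1515, 1460.2 and 1091 with enzastaurin and 1777, 1619.9 and 1667 with DMSO. At 18 h it read 1576, 1544 and 1152 with enzastaurin and 1426, 1829 and 1685 with DMSO. The groups overlapped at 4 and 18 h, and replicate 3 was the lowest enzastaurin array at 10 and 18 h. No YAP1 change passed: 0.21 (interval -0.07 to 0.48), -0.33 (-0.60 to -0.05) and -0.21 (-0.49 to 0.06), with adjusted p of 0.558, 0.145 and 0.316. When the 3 probe sets were averaged, YAP1 was lower at 10 h (-0.27, adjusted p = 0.0187).

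WWTR1, the gene for TAZ, read 4086, 3512 and 3481 with enzastaurin and 3320.1, 3566 and 3083 with DMSO at 4 h. At 10 h it read 3109.7, 3172 and 3021 with enzastaurin and 3360.2, 3562 and 3235 with DMSO. At 18 h it read 3641, 3347 and 3199 with enzastaurin and 4149, 4804 and 4319.8 with DMSO. The groups overlapped at 4 h and were apart at 10 and 18 h. Its change was 0.15 at 4 h (adjusted p = 0.441), -0.13 at 10 h (adjusted p = 0.396) and -0.38 at 18 h (SE 0.078, adjusted p = 0.00156). DMSO cells gained WWTR1 mRNA between 10 and 18 h (0.38, adjusted p = 0.0061), a call lost with array medians subtracted (0.27, adjusted p = 0.170), while in enzastaurin cells that step did not pass (0.13, adjusted p = 0.332).

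TEAD1, which carries YAP and TAZ to DNA, had the smallest spread over the 6 group means among the 10 genes (SD 0.10 on the log2 scale, against 0.76 for CCN2). It read 4914, 5050.2 and 5375 with enzastaurin and 4879, 5024 and 5229.9 with DMSO at 4 h. At 10 h it read 4604, 4539 and 4228 with enzastaurin and 4769.7, 4756 and 4933 with DMSO. At 18 h it read 4578, 4468 and 4614 with enzastaurin and 5042, 5459 and 5434 with DMSO. The groups overlapped at 4 h and were apart afterwards. The change was 0.02 (interval -0.10 to 0.14), -0.11 (-0.23 to 0.01) and -0.22 (-0.34 to -0.10), and the 18 h change passed (adjusted p = 0.0115), though not without DMSO replicate 2 (adjusted p = 0.0538) or with array medians subtracted (adjusted p = 0.200).

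Other probe sets of the same genes bear on how far a change belongs to the gene. In total 7 of the 10 genes had 14 further probe sets, of which 12 were at or above the level filter. At 18 h 11 of these 12 showed a negative change and 4 were lower by the test over all probe sets, against 1 at 4 h and 1 at 10 h, both of CCN1. The matching shares over all probe sets were not counted, so these numbers only describe the probe sets of the 10 genes. The second probe set of CCN1 changed by -0.77, -1.15 and -1.83 at 4, 10 and 18 h (adjusted p = 3.69e-12 at 18 h). At 18 h an AJUBA probe set with a mean intensity of 3056 (-0.66, adjusted p = 2.51e-06), a LATS2 probe set at 1459 (-0.54, adjusted p = 0.0342) and a WWTR1 probe set at 738 (-0.43, adjusted p = 0.0208) were lower too. Others did not pass: the second AXL probe set showed -0.17 (adjusted p = 0.536) and a WWTR1 probe set at 1417 showed -0.01 (adjusted p = 0.970). The single positive value among the 12 was 0.13, from a YAP1 probe set at 680.4. The 4 h and 10 h values of the LATS2 probe set at 1459 were -0.15 and -0.29, beside -0.39 and -0.02 from the main one, and neither passed. Averaging the probe sets of a gene ended the 18 h calls of AJUBA (-0.22, adjusted p = 0.421) and TEAD1 (-0.32, adjusted p = 0.0520), the 4 h call of LATS2 (-0.12, adjusted p = 0.849) and the 10 h call of AJUBA. The AJUBA average includes a probe set with a mean intensity of 56.8, under the filter, which showed 0.98 at 18 h. The LATS2 average includes a probe set with a mean intensity of 26.0, also under the filter, which showed 0.04 at 4 h.

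**Figure D3:**
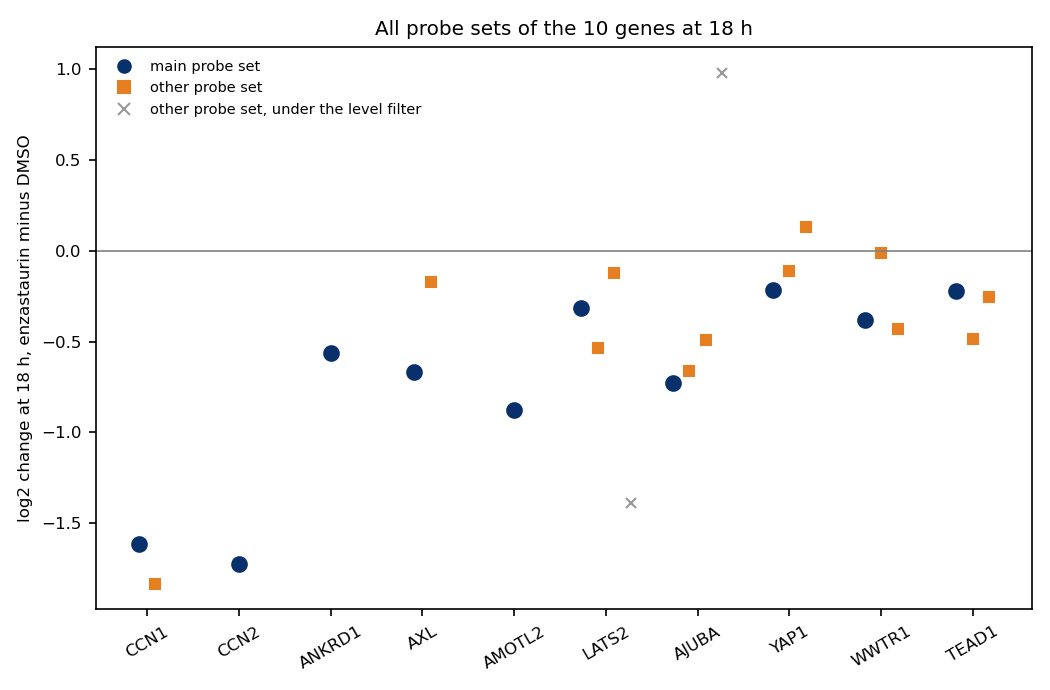
Log2 change at 18 h, enzastaurin minus DMSO (y axis), for every probe set of the 10 genes (x axis), estimated from 3 arrays per group; circles are main probe sets, squares other probe sets and crosses those under the level filter. Both CCN1 probe sets lie below -1.6, while the crosses of LATS2 and AJUBA lie at -1.39 and 0.98.

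The enzastaurin change was more negative at 18 h than at 4 h for 6 of the 10 genes by the test of that difference, against 3.71% of all genes tested in that direction. These were CCN1, CCN2, AMOTL2, AXL, AJUBA and WWTR1, with differences of -1.10 to -0.53 on the log2 scale. Averaging probe sets ended this call for AXL (-0.43, adjusted p = 0.0585), AJUBA (-0.22, adjusted p = 0.686) and WWTR1 (-0.30, adjusted p = 0.135). The LATS2 difference was 0.07 (interval -0.16 to 0.31) from its main probe set and -0.47 with its 4 probe sets averaged (adjusted p = 0.269), and it was -0.05 with array medians subtracted. The 4 averaged include the LATS2 probe set under the level filter, which changed by 0.04 at 4 h and -1.39 at 18 h. For ANKRD1 (-0.98 to 0.26), YAP1 (-0.81 to -0.03) and TEAD1 (-0.41 to -0.07) the difference did not pass, with adjusted p of 0.558, 0.192 and 0.0834. The test passed for 2 genes between 4 and 10 h and 4 genes between 10 and 18 h, where 0.598% and 0.905% of all genes were more negative. These differences use the DMSO samples of both times, and the genes also moved in DMSO cells. From 4 to 18 h in DMSO, CCN1, AJUBA, YAP1 and WWTR1 rose and LATS2 and AXL fell, where 11.3% of all genes rose and 9.00% fell. With array medians subtracted the rises of CCN1 (adjusted p = 0.0940) and YAP1 (0.157) did not pass. The YAP1 rise (0.40, adjusted p = 0.0355) was lost without any 1 of 5 of the 6 arrays, all but DMSO 18 h replicate 1 (adjusted p up to 0.152). From 4 to 18 h in enzastaurin cells 6 members fell and none rose, where 13.6% of all genes fell and 16.4% rose: CCN1, CCN2, AMOTL2, LATS2, AXL and TEAD1. The TEAD1 fall of 0.17 (adjusted p = 0.0363) was lost without any 1 of 5 of the 6 arrays, all but enzastaurin 4 h replicate 1 (adjusted p up to 0.156). With probe sets averaged, TEAD1 did not pass from 4 to 18 h in enzastaurin cells (0.09, adjusted p = 0.584). YAP1 was then called higher in these cells from 4 to 18 h (0.23, adjusted p = 0.0152) and from 10 to 18 h (0.24, adjusted p = 0.0357). By interval, 7 members fell in enzastaurin cells between 4 and 10 h, all but LATS2, AJUBA and YAP1, and AJUBA rose, against 6.92% and 10.2% of all genes. The calls of ANKRD1, WWTR1 and TEAD1 among these were lost without some single array, for ANKRD1 enzastaurin 4 h replicate 1 or 10 h replicate 3 (adjusted p up to 0.131), for WWTR1 the first of these or any 10 h replicate (up to 0.186), and for TEAD1 4 h replicates 2 or 3 or 10 h replicate 3 (up to 0.101). Between 10 and 18 h 3 fell and 1 rose (ANKRD1), against 5.64% and 5.42%. In DMSO cells AJUBA and YAP1 rose and LATS2 and AXL fell between 4 and 10 h, against 11.5% and 6.61% of all genes. Of these, the YAP1 call was lost without DMSO 4 h replicate 1 or 10 h replicates 1 or 3 (adjusted p up to 0.0992), and the AXL call without 4 h replicates 1 or 3 or 10 h replicate 1 (up to 0.0890). Averaging probe sets ended the 4 to 10 h calls of AJUBA (0.10, adjusted p = 0.746) and LATS2 (-0.20, adjusted p = 0.459) in DMSO cells, and the fall of AJUBA between 10 and 18 h in enzastaurin cells (-0.03, adjusted p = 0.950). The AJUBA and LATS2 averages each include a probe set under the level filter. Subtracting array medians ended the 4 to 10 h falls of LATS2 (adjusted p = 0.187) and AXL (0.370) in DMSO cells and of AXL (0.0590), WWTR1 (0.199) and TEAD1 (0.289) in enzastaurin cells, and the later rise of ANKRD1 (0.0543). In DMSO cells 2 members, CCN1 and WWTR1, rose between 10 and 18 h, against 2.02% of all genes. Averaging probe sets also added calls in DMSO cells. CCN1 then fell from 4 to 10 h (-0.33, adjusted p = 0.00316), and TEAD1 rose from 4 to 18 h (0.37, adjusted p = 0.0193).

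Genes outside the group with the course most like CCN2 were found by the root mean square difference of the 6 group means, each gene centred on its own mean, and the likeness carries no test. UBALD2 was nearest at 0.06 on the log2 scale, against a median of 0.71 over all genes tested, with changes of -0.81, -1.30 and -1.82 at 4, 10 and 18 h. DIO2, a thyroid hormone deiodinase (0.20), CLDN4, a tight junction claudin (0.22), CYLD, a deubiquitinase (0.22), and COQ8A (0.24) came next. CCN1 itself stood at 0.14 from CCN2, and the other members at 0.36 (AMOTL2) to 0.66 (YAP1). For CCN1 the nearest genes were UBALD2 (0.17), COQ8A (0.17), the kinase gene MAP3K14 (0.18), the chemokine receptor gene ACKR3 (0.18) and MYADM (0.18). All these values come from the main probe set only and rest on the same 18 arrays.

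Of 22 other YAP and TEAD target genes, 19 were tested. None passed at 4 h. At an unadjusted p under 0.05, 2 were higher and 1 was lower there, and the share of all genes at that threshold was not counted. By adjusted p, 1 was higher and 2 were lower at 10 h, where 3.77% and 4.69% of all genes were. At 18 h 1 was higher and 7 were lower, against 8.10% and 7.90% of all genes, with a median change of -0.05. EDN1, the vasoconstrictor peptide endothelin-1, showed the largest change, with 395 ± 98.2 in enzastaurin cells and 1191 ± 118 in DMSO cells at 18 h (SD, n = 3 each, log2 change -1.58, limma adjusted p = 3.22e-08) and -0.74 at 10 h (adjusted p = 0.00103). F3, tissue factor, was at 969 ± 273 with enzastaurin and 2146 ± 222 with DMSO at 18 h (-1.16, adjusted p = 1.21e-05), and its 10 h change of -0.60 did not pass after leaving out replicate 3 of DMSO or of enzastaurin (adjusted p reaching 0.0675). CRIM1 (-0.73) and RBMS3 (-0.54) were lower at 18 h. GADD45A, a growth arrest gene, was the higher one (0.44 at 18 h, adjusted p = 3.73e-05). In DMSO cells between 4 and 18 h, 1 of the 19 rose and 9 fell, against 11.3% and 9.00% of all genes.

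Of 23 genes of the Hippo kinase cascade and its upstream regulators, 20 were tested, and the numbers higher and lower were 0 and 1 at 4 h, 1 and 1 at 10 h, and 3 and 2 at 18 h (median change 0.06). Over all genes 0.558% and 1.25% were higher and lower at 4 h, 3.77% and 4.69% at 10 h, and 8.10% and 7.90% at 18 h. FAT1, a giant atypical cadherin, was higher at 3597 ± 190.2 in enzastaurin cells and 1805 ± 109.5 in DMSO cells at 18 h (0.99, adjusted p = 3.35e-08), and its rise of 0.33 at 10 h was lost without any 1 of 3 arrays, DMSO replicate 3 and enzastaurin replicates 1 and 2 (adjusted p up to 0.0717). STK4, which encodes the kinase MST1 that activates LATS kinases, was higher at 18 h (0.44, adjusted p = 0.000609), although not with its 7 probe sets averaged (0.33, adjusted p = 0.133). FRMD6, a FERM-domain gene that acts upstream of the cascade, was lower at -0.46, -0.67 and -0.79 at 4, 10 and 18 h (adjusted p = 0.0205, 0.000218 and 1.29e-05), and its 4 h call was lost without any 1 of 5 of the 6 arrays, all but DMSO replicate 1 (adjusted p up to 0.115). MAP4K4, a kinase that phosphorylates LATS kinases, was lower at 18 h (-0.46, adjusted p = 0.00182).

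Of 6 TEAD paralogs and TEAD-binding cofactors 4 were tested and none passed at any time by limma, while 2 were lower at 10 h at an unadjusted p under 0.05, and 2 were called lower there with array weights. The shares of all genes lower at 10 h by these 2 measures were not counted. At 18 h TEAD2 was at 232 ± 84.0 with enzastaurin and 288 ± 37.0 with DMSO (-0.34, adjusted p = 0.323). TEAD4 was at 664 ± 94.3 with enzastaurin and 594 ± 31.4 with DMSO (0.15, adjusted p = 0.541), and TEAD3 lay under the filter. Of 16 actin genes and targets of the serum response factor, which some YAP targets share, 11 were tested, with 1 higher at 10 h and 4 lower at 18 h, against 3.77% and 7.90% of all genes. None passed at 4 h, where 1 was higher and 1 lower at an unadjusted p under 0.05, and the share of all genes at that threshold was not counted. VCL, vinculin (-0.56, adjusted p = 2.59e-05), CNN2, a calponin (-0.47), TPM1, a tropomyosin (-0.45), and FHL2 (-0.31) were lower at 18 h. FHL2 was the gene higher at 10 h (0.31, adjusted p = 0.0116), a call lost without DMSO replicate 1 (adjusted p = 0.0744), and averaging the 2 probe sets of VCL ended its 18 h call (-0.27, adjusted p = 0.610). With array medians subtracted FHL2 passed neither at 10 h (adjusted p = 0.103) nor at 18 h (adjusted p = 0.0614).

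**Figure D4:**
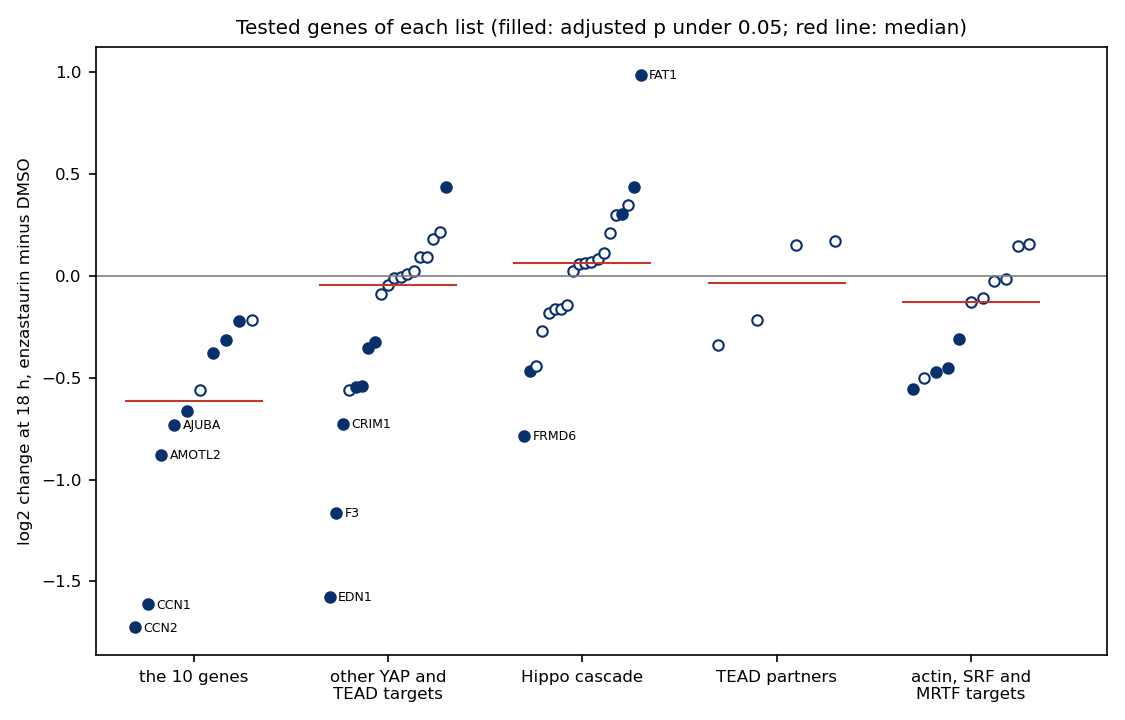
Log2 change at 18 h, enzastaurin minus DMSO (y axis), for the tested genes of each list (x axis), estimated from 3 arrays per group; filled circles passed adjusted p under 0.05 and red lines are medians. The 10 genes have a median of -0.61, and the other lists have medians between -0.13 and 0.06.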

How the data were processed

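The deposited table holds 1 scaled intensity per probe set and array, made by the authors with GCOS 1.2 per the submitters' processing notes, from biotinylated cRNA on Affymetrix HG-U133 Plus 2.0 arrays. Its other steps are not given in the sources used here, and detection calls were not used. Of 54613 probe sets 41091 had 1 gene symbol, 1801 several and 11721 none; symbols were updated by gene identifier to RefSeq (41037 matched). The main probe set of a gene had the highest mean log2(intensity + 16), and genes under the median level (an intensity of 102) were left out. limma 3.58.1 in R 4.3.3 fitted 1 mean per group over 18 arrays, with a variance trend and Benjamini-Hochberg adjustment over 12376 genes. The test was checked on simulated data. Deviations from group means in arrays sharing a replicate number correlated between -0.0814 and 0.0544, and no pairing was assumed. The members and lists were chosen with earlier results of these data known. Up to 4 called genes of each further list, and 5 genes nearest to CCN2 and CCN1, were named by rule. Alternatives changed the offset (1 or 64), level filter, normalization, probe set summary, array weights, variance trend, arrays in the fit, replicate block and a 2-fold minimum. Figures used Python 3.11.15 and matplotlib 3.10.9.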

Additional observations from a re-analysis of the deposited data

Results flagged for a closer look

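The test of the difference between enzastaurin effects at 2 times passed for 6 genes between 4 and 18 h (limma, adjusted over 12376 genes, log2 scale). The differences were -1.10 for CCN1, -1.04 for CCN2, -0.72 for AMOTL2, -0.67 for AXL, -0.54 for AJUBA and -0.53 for WWTR1, with adjusted p from 1.93e-06 (CCN2) to 0.00413 (WWTR1). Between 4 and 10 h it passed for CCN1 (-0.57, adjusted p = 0.0274) and CCN2 (-0.64, adjusted p = 0.00278). Between 10 and 18 h it passed for CCN1 (-0.53, adjusted p = 0.0269), CCN2 (-0.40, adjusted p = 0.0442), AXL (-0.60, adjusted p = 0.00381) and AJUBA (-0.49, adjusted p = 0.0128). The CCN2 call between 10 and 18 h did not survive leaving out any 1 of 9 among 12 arrays (adjusted p reaching 0.114). It was also lost with quantile normalization (0.058), no level filter (0.0701) or every probe set on its own (0.0646). The same held with no variance trend (0.103) or only the groups compared (0.083). Averaging probe sets ended the calls of CCN2 (0.0696), AXL (-0.40, adjusted p = 0.155) and AJUBA (0.0078, adjusted p = 0.994) between 10 and 18 h. With array medians subtracted none of these 4 calls between 10 and 18 h passed (adjusted p of 0.271 for CCN1, 0.311 for CCN2, 0.0683 for AXL and 0.200 for AJUBA), nor did CCN1 between 4 and 10 h (0.172). The CCN1 calls were lost without any 1 of 5 of 12 arrays between 4 and 10 h (up to 0.0791) and of 8 of 12 between 10 and 18 h (up to 0.0810).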

How the results depend on the processing

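Calls of lower CCN1 and CCN2 at 10 and 18 h, and of lower CCN2 at 4 h, lower AMOTL2 at 10 and 18 h and lower AXL and WWTR1 at 18 h, kept their direction and their side of the threshold under every alternative apart from the 2-fold minimum. With that minimum the members called lower numbered 0, 2 and 2 at 4, 10 and 18 h, instead of 3, 5 and 8. Subtracting array medians left 1 at 4 h. Fitting only the groups compared left 3 at 10 h, as did leaving out enzastaurin replicate 3 at 10 and 18 h together, an alternative chosen after seeing the data. Leaving out 1 array gave 2 to 3, 3 to 5 and 7 to 9 at 4, 10 and 18 h, and 3 at 10 h came from leaving out DMSO replicate 1, DMSO replicate 3 or enzastaurin replicate 3. Fitting only the groups compared also ended the 18 h calls of LATS2 (adjusted p = 0.0509) and TEAD1 (0.0648), and at 10 h that of ANKRD1 (0.0672). No alternative gave a member called higher with enzastaurin than with DMSO at the same time. Between times, averaging probe sets added calls of higher YAP1 in enzastaurin cells and of higher TEAD1 in DMSO cells, both from 4 to 18 h (adjusted p = 0.0152 and 0.0193). With replicate number as a block, 3, 4 and 8 members were lower, the AJUBA call at 10 h being lost (adjusted p = 0.0574). The block also ended the CCN2 difference of effects between 10 and 18 h (-0.40, adjusted p = 0.0604). The labels do not tie the numbers to shared cultures. The 6 effect differences between 4 and 18 h became 3 with probe sets averaged, 2 with the 2-fold minimum and stayed 6 without any 1 array. Of 6 members changed between 4 and 18 h in DMSO cells, and 6 in enzastaurin cells, the 2-fold minimum left 0 and 1, and leaving out 1 array gave 5 to 6 in both. Averaging probe sets turned the sign of 14 of 120 member values. In 9 of these neither value passed, among them YAP1 (-0.03) and TEAD1 (-0.04) at 4 h. The other 5 were AJUBA in the difference of effects between 10 and 18 h (0.0078) and in enzastaurin cells from 4 to 10 h (-0.1268), WWTR1 in enzastaurin cells from 4 to 10 h (0.0148), and YAP1 (0.2333) and TEAD1 (0.0921) in enzastaurin cells from 4 to 18 h. The cause was not tested. Over all genes 224, 1046 and 1981 passed at 4, 10 and 18 h. Subtracting array medians gave 79, 443 and 1187, averaging probe sets 127 at 4 h and 630 at 10 h, the 2-fold minimum 16, 74 and 197, and only the groups compared 139 at 4 h. Leaving out 1 array gave as few as 138 at 4 h and 653 at 10 h. With 3 arrays a group and no detection calls, intensities near the filter are imprecise, and a missed threshold does not show that a gene was stable.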
